A study of Equus caballus with 40 samples.

Results

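The genes described here are the interleukin-1 (IL-1) receptors and their antagonist in equine chondrocyte pellets: IL1R1, IL1R2, IL1RAP and IL1RN. They were chosen by symbol, with earlier results of these data known, and are 4 of the 16661 genes that the platform annotation names. Each of the 4 is represented by 1 probe set. Expression was measured on Affymetrix Equine Gene ST arrays, with 4 arrays in each of 10 groups. Chondrocytes from equine cartilage were grown as 3D pellets, and the stimulated pellets were given recombinant equine IL-1β at 5 ng/ml for 48 h before treatment. Treatment then combined IL-1β with 1 of 3 serum preparations, or gave IL-1β alone. The preparations were AES (autologous equine serum), AES24h and ACS (autologous conditioned serum). Control pellets had culture medium and no IL-1β at any stage. All 5 treatments were harvested after 48 h and after 2 h. These times count from treatment, which in stimulated pellets followed the 48 h of IL-1β. The labels do not explain AES24h, give no serum dose and no age of the horses, and state that RNA came from 1 pellet per group. Nor do they say whether the replicates were grown separately or came from different horses. The p-values therefore cover the spread among the arrays, and that spread may be technical.

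IL-1 acts on a cell through IL1R1, the receptor whose intracellular domain signals once the accessory protein IL1RAP has joined it. IL1R2 binds IL-1 but lacks the signalling domain, and for this reason is called a decoy receptor, which can also be shed from the cell surface. IL1RN encodes the receptor antagonist, which occupies IL1R1 without starting a signal. In cartilage, IL-1 is known for driving matrix breakdown, and the antagonist is a known constituent of conditioned serum.

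Values are log2 expression as deposited, and fold changes are differences of group means on that scale. The array medians lay between 4.35 and 4.59. Within groups the correlation over all probe sets was 0.962 to 0.984, and 0 of 780 pairs of arrays were identical. Of the 10 chondrocyte markers, 7 to 9 lay above the array's own median on each of the 40 arrays, and type II collagen (COL2A1), aggrecan (ACAN), COMP and SOX9 did so on all 40. Precision is limited by the number of arrays. A change is called where limma's two-sided test gave a Benjamini-Hochberg adjusted p under 0.05 over all 30559 probe sets, and the percentage of all probe sets called is given with each comparison.

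The decoy receptor IL1R2 rose with IL-1β at both times, and its group means ranged over 6.05 log2 units. It was higher with each serum given with IL-1β than in control at both times. At 48 h it was called higher with AES24h than with IL-1β alone (2.02, limma adjusted p = 0.0377). That call was lost in 6 of 8 fits that left out 1 array. ACS and AES gave 1.91 and 1.49 against IL-1β at 48 h and were not called, and the sera were not told apart. IL1R1, IL1RAP and IL1RN were called in 0 of 29 comparisons each, with 6, 0 and 3 of them under an unadjusted p of 0.05 in limma. IL1R2 was called in 10 of the 29, all of them as higher. These counts come from a model without a term for the replicate number. With that term added, IL1R1 was called lower than control with AES, AES24h and ACS at 2 h and with AES at 48 h.

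At 48 h, IL1R2 measured 8.31, 9.04, 9.80 and 8.39 with IL-1β alone, against 6.24, 6.79, 6.03 and 5.98 in control. Every IL-1β array was above every control array. The means of 8.88 ± 0.69 with IL-1β and 6.26 ± 0.37 in control (SD, n = 4 each) differed by a log2 fold change of 2.63 (SE 0.45, 95% interval 1.72 to 3.53, limma adjusted p = 0.000425), which is 6.17-fold. It ranked as number 23 from the highest of 30559 probe sets in a comparison that called 1.26% of them. Because a pellet was measured whole, fewer cells of a type and less RNA per cell cannot be told apart. Chondrocyte markers moved with IL1R2 in the other direction: of the 10, 8 were lower with IL-1β than in control at 48 h (median log2 fold change of the list −1.37, beside 0.04 over all probe sets) and 4 were lower at 2 h (median −1.09, beside 0.04). Against IL-1β alone at 48 h, 3 were lower with AES, 1 with AES24h and 1 with ACS, where 0.442%, 0.226% and 0.262% of all probe sets were called. Their part in the IL1R2 results was not tested.

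At 2 h, IL1R2 measured 9.39, 9.99, 10.44 and 9.37 with IL-1β alone, against 5.01, 4.48, 4.95 and 4.96 in control. The groups were far apart and each was narrow. The means were 9.80 ± 0.52 with IL-1β and 4.85 ± 0.25 in control (SD, n = 4 each). The log2 fold change of 4.95 (95% interval 4.04 to 5.85, limma adjusted p = 1.1e-09) corresponds to 30.9-fold and ranked as number 7 from the highest. This comparison called 4.52% of probe sets. The control arrays lay only just above their array medians, so the fold depends on a low level of IL1R2 in unstimulated pellets.

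**Figure D1:**
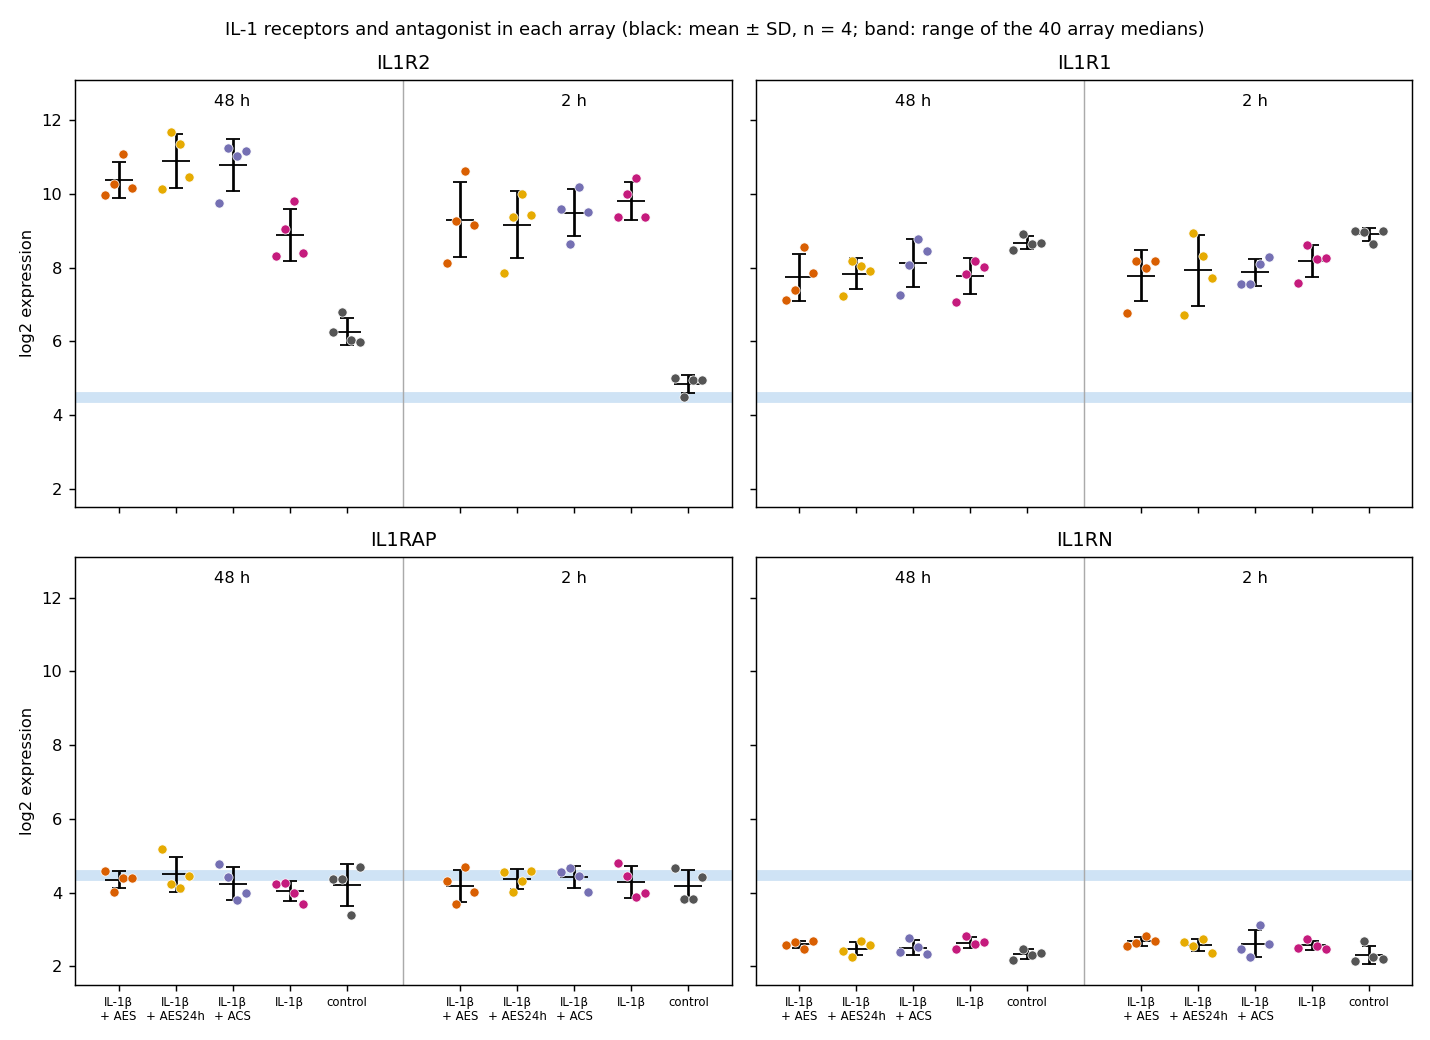
Log2 expression of IL1R2, IL1R1, IL1RAP and IL1RN (vertical axes) in each of the 40 arrays by treatment, with 48 h left of 2 h in each panel; black bars are the mean ± SD of 4 arrays and the blue band spans the array medians of 4.35 to 4.59. IL1R2 arrays with IL-1β, with or without serum, lie at 7.86 and above and control arrays at 6.79 and below, while IL1RAP lies around the band and IL1RN at 3.10 or lower.

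At 48 h the mean of IL1R2 was higher in each serum group than with IL-1β alone. IL1R2 measured 9.98, 10.26, 11.08 and 10.15 with AES. It measured 10.13, 11.68, 11.36 and 10.45 with AES24h. It measured 9.75, 11.25, 11.02 and 11.16 with ACS, set against the same IL-1β arrays as above. All arrays with AES and AES24h were above every IL-1β array, and 1 ACS array overlapped them. The means were 10.37 ± 0.49 with AES, 10.90 ± 0.73 with AES24h, 10.80 ± 0.70 with ACS and 8.88 ± 0.69 with IL-1β alone (SD, n = 4 each).

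Of the 3 comparisons, AES24h against IL-1β was called, with a log2 fold change of 2.02 (SE 0.45, 95% interval 1.11 to 2.92, limma adjusted p = 0.0377), or 4.05-fold. That comparison called 0.226% of probe sets. ACS against IL-1β gave 1.91 (95% interval 1.00 to 2.82, limma adjusted p = 0.0523), with 0.262% of probe sets called. AES against IL-1β gave 1.49 (95% interval 0.58 to 2.39, limma adjusted p = 0.134), with 0.442% called. The 3 comparisons share the 4 IL-1β arrays. The AES24h call was lost without any 1 of AES24h arrays 2, 3 and 4 or IL-1β arrays 1, 2 and 4, with log2 fold changes of 1.76 to 2.33 and limma adjusted p up to 0.171 when single arrays were left out. The ACS comparison was called without ACS array 1 (2.26, limma adjusted p = 0.0258) or IL-1β array 3 (2.22, limma adjusted p = 0.0397).

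The mean of the 3 sera at 48 h, a comparison chosen after seeing the data, was 10.69, against 8.88 with IL-1β alone. All 12 serum arrays were above the IL-1β mean. The log2 fold change was 1.81 (SE 0.36, 95% interval 1.07 to 2.54, limma adjusted p = 0.00669), with 0.733% of probe sets called. It was not called without IL-1β array 1 (1.61, limma adjusted p = 0.066) or IL-1β array 4 (1.64, limma adjusted p = 0.0597).

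At 2 h the IL1R2 means with serum lay below that with IL-1β alone, and none of these differences was called. IL1R2 measured 8.14, 9.27, 10.63 and 9.16 with AES, against the 4 IL-1β arrays given above. With AES24h it measured 7.86, 9.37, 10.01 and 9.44, and with ACS 9.59, 8.65, 10.19 and 9.52. Each serum group overlapped the IL-1β arrays, and the first array of AES and of AES24h was the lowest of its group. The means were 9.30 ± 1.02 with AES, 9.17 ± 0.92 with AES24h, 9.49 ± 0.63 with ACS and 9.80 ± 0.52 with IL-1β alone (SD, n = 4 each). The log2 fold changes against IL-1β were −0.50 for AES (95% interval −1.41 to 0.41), −0.63 for AES24h (−1.53 to 0.28) and −0.31 for ACS (−1.22 to 0.60), with limma adjusted p of 0.87, 0.96 and 0.985. These comparisons called 0.0164%, 0.0229% and 0.0262% of probe sets. The mean of the 3 sera against IL-1β at 2 h was −0.48 (limma adjusted p = 0.844, 0.0458% called).

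Against control, IL1R2 was higher with every serum. At 48 h the log2 fold changes were 4.11 for AES, 4.64 for AES24h and 4.54 for ACS, with limma adjusted p of 4.87e-08, 4.08e-09 and 7.59e-09, where 7.76%, 3.54% and 3.85% of probe sets were called. At 2 h they were 4.45, 4.32 and 4.64, with limma adjusted p of 1.13e-08, 1.87e-08 and 4.43e-09, where 7.18%, 6.12% and 6.49% were called. No serum array overlapped a control array. These comparisons and IL-1β against control share the control arrays of their time. Every serum group also had IL-1β and no group had serum alone, so serum against control, here and below, includes the effect of IL-1β.

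The sera were not told apart by IL1R2. At 48 h, AES24h minus AES was 0.53 (95% interval −0.37 to 1.44), ACS minus AES was 0.43 (−0.48 to 1.33) and ACS minus AES24h was −0.11 (−1.01 to 0.80). In limma 0% of probe sets were called in these 3, with 3583, 3258 and 756 probe sets under an unadjusted p of 0.05. Without AES array 3 at 48 h, 134 probe sets were called in AES24h against AES and 44 in ACS against AES. At 2 h the differences were −0.13 (−1.03 to 0.78) for AES24h minus AES, 0.19 (−0.72 to 1.10) for ACS minus AES and 0.32 (−0.59 to 1.22) for ACS minus AES24h. AES24h against AES called 0.00327% and the other comparisons at 2 h called 0%, with 1313 and 1197 probe sets under an unadjusted p of 0.05. None of the 6 differences was called, and their intervals reach 1.44 at the widest.

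**Figure D2:**
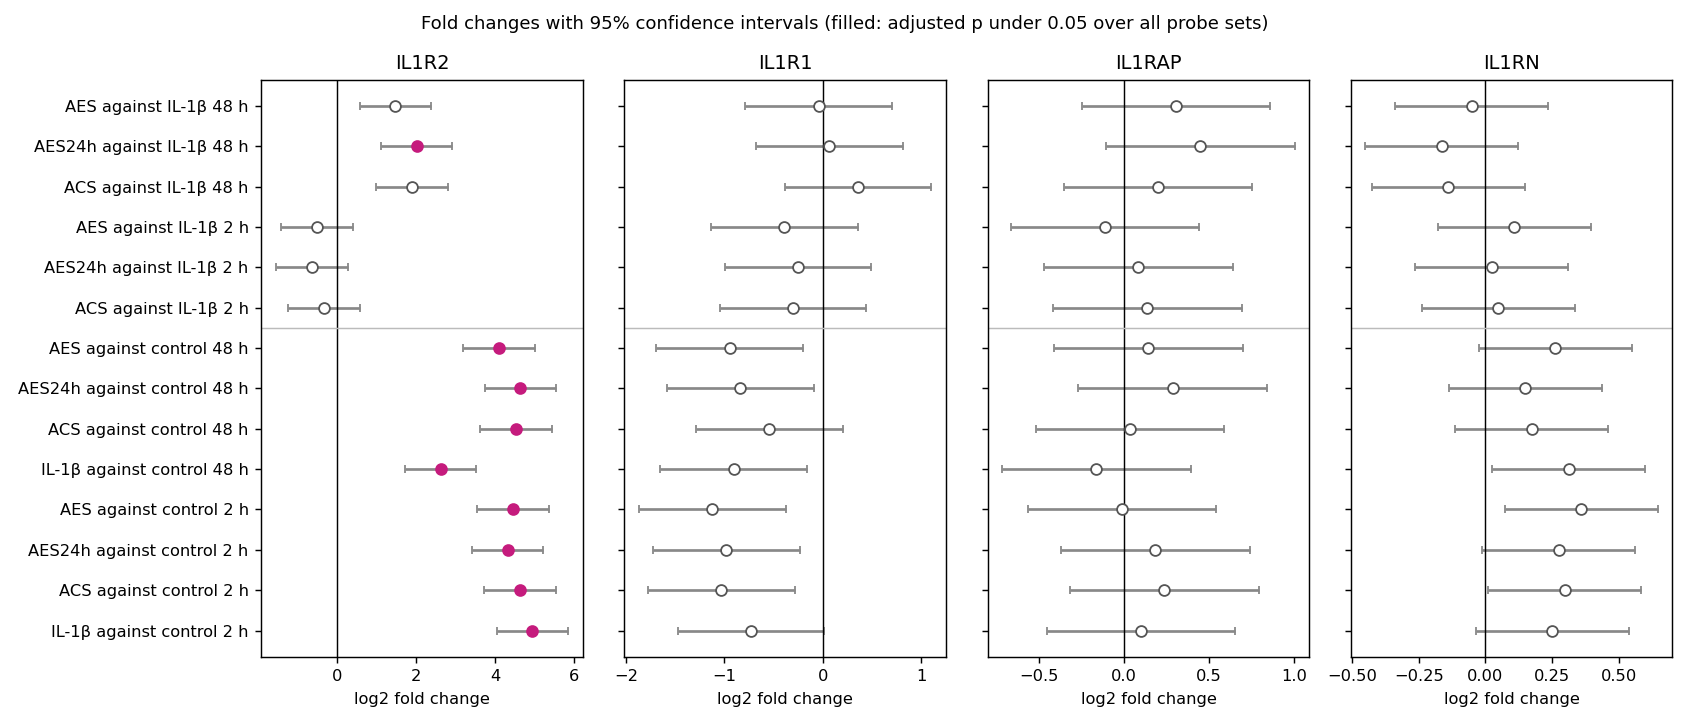
Log2 fold changes (horizontal axes, a separate scale per gene) with 95% confidence intervals for the 14 comparisons of a serum against IL-1β or control and of IL-1β against control; filled points have an adjusted p under 0.05. IL1R2 is filled in all 8 comparisons with control and in AES24h against IL-1β at 48 h, and IL1R1, IL1RAP and IL1RN have no filled point.

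Between harvests, IL1R2 rose with AES24h, whose mean was 10.90 at 48 h and 9.17 at 2 h (log2 fold change 1.73, 95% interval 0.83 to 2.64, limma adjusted p = 0.0431), in a comparison that called 1.12% of probe sets. This call was lost without AES24h arrays 1, 2 or 4 at 2 h or 2, 3 or 4 at 48 h, with limma adjusted p up to 0.216 and a log2 fold change down to 1.30. The other treatments gave values that were not called. AES gave 1.07 (limma adjusted p = 0.243, 1.65% called), ACS 1.31 (limma adjusted p = 0.167, 0.916% called) and IL-1β alone −0.91 (limma adjusted p = 0.708, 0.00654% called). Control pellets gave 1.41 (limma adjusted p = 0.553, 0.00327% called), although their arrays at 48 h were all above those at 2 h. Control IL1R2 at 48 h minus 2 h ranked as number 5 from the highest of all probe sets, in a comparison where few moved.

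The IL-1β effect on IL1R2 was 2.63 at 48 h and 4.95 at 2 h, a difference of −2.32 (95% interval −3.60 to −1.04, limma adjusted p = 0.253). It ranked as number 3 from the lowest, with 0.00327% of probe sets called. The serum effects against IL-1β differed between 48 h and 2 h by 1.98 for AES (limma adjusted p = 0.516, 0.00327% called), 2.65 for AES24h (limma adjusted p = 0.226, 0.00654% called) and 2.22 for ACS (limma adjusted p = 0.375, 0.00654% called). For the mean of the 3 sera the difference was 2.28 (95% interval 1.24 to 3.33, limma adjusted p = 0.0938, 0.0491% called). That last difference was called without AES array 3 at 2 h (2.43, limma adjusted p = 0.0495) or without ACS array 1 at 48 h (2.40, limma adjusted p = 0.0465). With all arrays, none of these differences passed the threshold, though each had an unadjusted p under 0.05.

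IL1R2 is also abundant in neutrophils and monocytes, and leukocyte markers were therefore set beside it. Of the 15 measured leukocyte markers, 0 were called in IL-1β against control at either time by limma, with 0 at 48 h and 1 at 2 h under an unadjusted p of 0.05. Of all probe sets, 1.26% at 48 h and 4.52% at 2 h were called, and 9.83% and 14.1% were under that unadjusted p. At these shares, 0 calls among 15 genes do not show an absence of leukocytes. Against IL-1β alone, 1 was called in the 6 serum comparisons, which called 0.0164% to 0.442% of all probe sets. This was FCER1G, a signalling subunit of Fc receptors, in ACS at 48 h (5.40 ± 0.89 with ACS and 3.87 ± 0.43 with IL-1β alone, SD, n = 4 each, limma adjusted p = 0.0474). Against control, FCER1G was higher at 48 h with AES24h (1.45, limma adjusted p = 0.0109) and ACS (1.82, limma adjusted p = 0.000877). CD68, a lysosomal protein of macrophages and other cells, named after its values were seen, was higher with AES at 48 h (0.56, limma adjusted p = 0.0397) and at 2 h (0.74, limma adjusted p = 0.00483). In each of these comparisons with control, 1 of the 15 markers was called. At 48 h, AES, AES24h and ACS against control called 7.76%, 3.54% and 3.85% of all probe sets, and at 2 h AES called 7.18%. At these shares, 1 call among 15 genes is not a result about the list. The summed linear level of the 15 at 48 h was 231 to 342 with AES, 225 to 302 with AES24h, 224 to 378 with ACS, 194 to 223 with IL-1β alone and 180 to 201 in control. At 2 h it was 224 to 278 with AES, 219 to 236 with AES24h, 222 to 263 with ACS, 218 to 247 with IL-1β alone and 184 to 201 in control. PTPRC, ITGAM, TYROBP, LYZ, CD163, LAPTM5, CSF1R and CD3E lay above the array's own median on 0 of 40 arrays, S100A8 on 4 and S100A9 on 3, while CD68 and CSF3R did so on 40. At 48 h every serum array was above every IL-1β array in this summed level, and at 2 h every stimulated array was above every control array. The margin at 48 h was narrow, with the lowest ACS array at 223.6 and the highest IL-1β array at 223.4. The part of this summed level in the IL1R2 results was not tested.

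IL1R1, the signalling receptor, was lower on average in every stimulated group than in control, and none of these differences was called in the model used here, which has no replicate term. At 48 h it measured 7.07, 7.83, 8.19 and 8.01 with IL-1β alone, against 8.48, 8.91, 8.63 and 8.68 in control. The 2 h values were 7.57, 8.62, 8.24 and 8.26 with IL-1β alone, against 8.9999, 8.98, 8.65 and 8.99 in control. No IL-1β array reached the lowest control array of its time. The means at 48 h were 7.77 ± 0.49 with IL-1β and 8.68 ± 0.18 in control, and at 2 h 8.17 ± 0.44 with IL-1β and 8.90 ± 0.17 in control (SD, n = 4 each). The log2 fold changes were −0.90 at 48 h (95% interval −1.65 to −0.16, limma adjusted p = 0.356) and −0.73 at 2 h (−1.48 to 0.02, limma adjusted p = 0.374).

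With serum at 48 h, IL1R1 measured 7.11, 7.39, 8.56 and 7.86 with AES, 7.22, 8.19, 8.04 and 7.91 with AES24h, and 7.25, 8.06, 8.77 and 8.45 with ACS. At 2 h it measured 6.76, 8.18, 7.996 and 8.19 with AES, 6.71, 8.95, 8.32 and 7.71 with AES24h, and 7.57, 7.55, 8.09 and 8.28 with ACS. All 6 serum groups overlapped IL-1β alone. The 6 log2 fold changes against IL-1β lay between −0.39 and 0.36, with a lowest limma adjusted p of 0.877, and their intervals reached at most −1.14 and 1.11.

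Against control, the IL1R1 log2 fold changes at 48 h were −0.94 for AES, −0.84 for AES24h and −0.54 for ACS, with limma adjusted p of 0.11, 0.328 and 0.631. At 2 h they were −1.12, −0.98 and −1.03, with limma adjusted p of 0.057, 0.12 and 0.093. The serum and control arrays did not overlap for AES24h at 48 h or for AES and ACS at 2 h. A single array decided some of these: without AES24h array 2 at 2 h its comparison was called (−1.32, limma adjusted p = 0.0231), and so was AES at 48 h without AES array 3 (−1.22, limma adjusted p = 0.0339). With a replicate term added to the model, AES, AES24h and ACS at 2 h and AES at 48 h were called lower than control. These had limma adjusted p of 0.00351, 0.0116, 0.00806 and 0.0149. The other IL1R1 comparisons, between sera and between times, were not called and lay between −0.40 and 0.66.

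IL1RAP, the accessory protein of the signalling complex, varied little. Its group means ranged over 0.45 log2 units with a pooled SD of 0.40, and 13 of 40 arrays lay above their own median. The group means lay close to the array medians, so IL1RAP was not shown to be above background. At 48 h it measured 4.24, 4.26, 3.98 and 3.69 with IL-1β alone, against 4.36, 4.38, 3.38 and 4.70 in control. At 2 h it measured 4.81, 4.44, 3.88 and 3.999 with IL-1β alone, against 4.67, 3.83, 3.82 and 4.41 in control. The groups overlapped at both times, with log2 fold changes of −0.16 at 48 h (limma adjusted p = 0.896) and 0.10 at 2 h (limma adjusted p = 0.943).

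With serum at 48 h, IL1RAP measured 4.59, 4.03, 4.38 and 4.39 with AES, 5.17, 4.22, 4.11 and 4.46 with AES24h, and 4.76, 4.43, 3.79 and 3.98 with ACS. At 2 h IL1RAP measured 4.30, 3.68, 4.70 and 4.004 with AES, 4.56, 4.01, 4.31 and 4.58 with AES24h, and 4.55, 4.66, 4.45 and 4.01 with ACS. The highest of the 40 arrays was the first AES24h array at 48 h and the lowest was a control array at 48 h. Over all 29 comparisons the log2 fold changes lay between −0.26 and 0.45, with a lowest limma adjusted p of 0.714.

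IL1RN, the antagonist, lay below the array's own median on all 40 arrays, at 2.14 to 3.10, and was therefore not shown to be above background. At 48 h it measured 2.46, 2.82, 2.61 and 2.67 with IL-1β alone, against 2.17, 2.47, 2.31 and 2.37 in control. At 2 h it measured 2.50, 2.73, 2.55 and 2.47 with IL-1β alone, against 2.14, 2.68, 2.24 and 2.19 in control. The groups overlapped at both times. The log2 fold changes were 0.31 at 48 h (limma adjusted p = 0.446) and 0.25 at 2 h (limma adjusted p = 0.458).

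With serum at 48 h, IL1RN measured 2.56, 2.65, 2.46 and 2.68 with AES, 2.40, 2.26, 2.68 and 2.57 with AES24h, and 2.37, 2.77, 2.53 and 2.34 with ACS. At 2 h IL1RN measured 2.55, 2.63, 2.82 and 2.68 with AES, 2.67, 2.55, 2.75 and 2.37 with AES24h, and 2.47, 2.25, 3.10 and 2.61 with ACS. The control means of 2.33 at 48 h and 2.31 at 2 h were the lowest of the 10 groups. The comparisons lay between −0.19 and 0.36, with a lowest limma adjusted p of 0.129, for AES against control at 2 h. That comparison was called without control array 2 (0.48, limma adjusted p = 0.0367), whose value of 2.68 was the highest of its group. The arrays measure RNA of the pellets only, so antagonist protein brought by a serum would not be seen.

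In the order of group means, IL1R2 stood highest with AES24h at 48 h, followed by ACS and AES at 48 h, IL-1β alone at 2 h, ACS, AES and AES24h at 2 h, and IL-1β alone at 48 h. Each of these groups overlapped its neighbour. A gap of 2.63 then separated IL-1β at 48 h from control at 48 h, and a gap of 1.41 separated control at 48 h from control at 2 h, with no overlap at either step. The order of IL1R1 began with control at 2 h and control at 48 h and ended with AES at 48 h, over a range of 1.17. All neighbours in the IL1R1 and IL1RAP orders overlapped.

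The spread within groups followed the replicate number in the titles for both receptors. Array 1 was the lowest of its group for IL1R1 in 8 of 10 groups and for IL1R2 in 6 of 10. Array 3 was the highest for IL1R2 in 6 of 10. The deviation of array 1 from its group mean had a median of −0.62 for IL1R1 and −0.49 for IL1R2. The labels do not say what the number marks, and the model has no term for it.

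**Figure D3:**
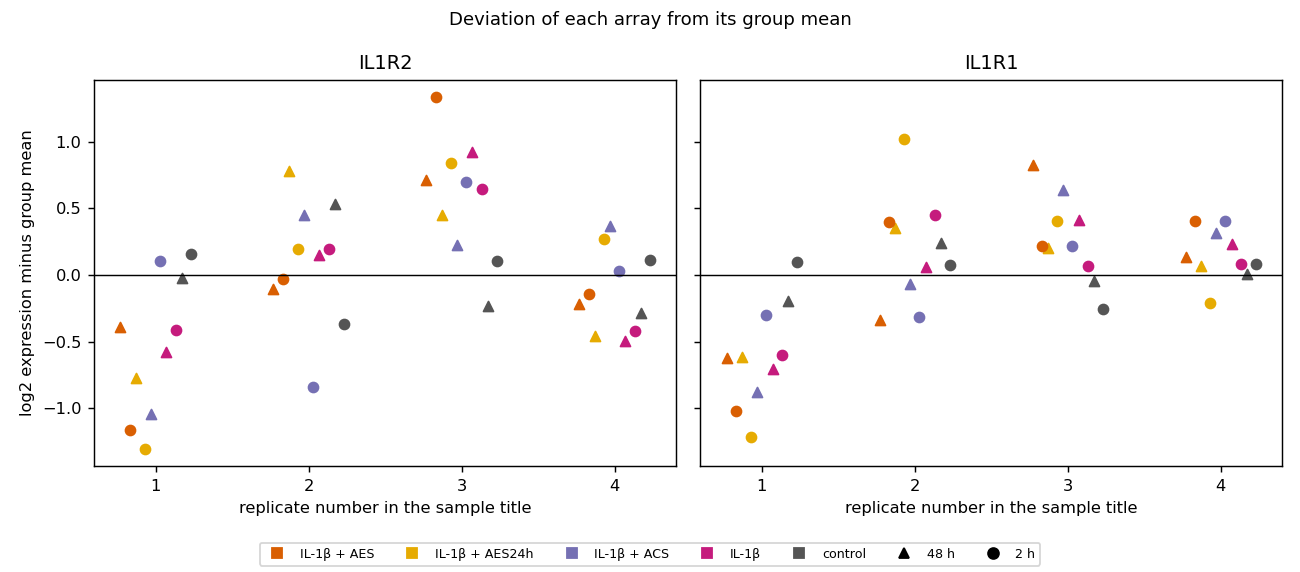
Deviation of each array from its group mean (vertical axis, log2 expression) by replicate number in the title (horizontal axis) for IL1R2 and IL1R1; colours are treatments, triangles 48 h and circles 2 h. The arrays numbered 1 have medians of −0.49 for IL1R2 and −0.62 for IL1R1, below those of the other numbers.

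Among genes around the receptors, list counts were read against the share of all probe sets called with IL-1β against control, 1.26% at 48 h and 4.52% at 2 h. Under an unadjusted p of 0.05 these shares were 9.83% at 48 h and 14.1% at 2 h. Of 14 measured ligands, antagonists and processing genes of the IL-1 family, 0 were called in IL-1β against control at 48 h by limma, with 1 under an unadjusted p of 0.05, and 2 were higher at 2 h. IL1A, which encodes the other agonist of IL1R1, averaged 5.61 ± 1.24 with IL-1β and 3.17 ± 0.18 in control at 2 h (SD, n = 4 each, log2 fold change 2.44, limma adjusted p = 0.0167). IL36G, an IL-1 family ligand of a separate receptor, rose by 1.38 at 2 h (limma adjusted p = 0.00247). At 48 h IL1A gave 0.97 (limma adjusted p = 0.666) and IL36G 0.85 (limma adjusted p = 0.221). The list's median was 0.11 at 48 h and 0.06 at 2 h, beside 0.04 over all probe sets at each time. With AES, AES24h and ACS against control at 48 h, 1, 1 and 0 of the 14 were called. Those comparisons called 7.76%, 3.54% and 3.85% of all probe sets. The gene called was IL36G, with AES (1.37, limma adjusted p = 0.00232) and AES24h (1.03, limma adjusted p = 0.0431). IL1B itself had no named probe set.

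Among the 7 other IL-1 family receptors, such as IL1RL1 and IL18R1, 0 were called by limma in IL-1β against control, with 1 at each time under an unadjusted p of 0.05. Of 20 measured adaptors, kinases and ubiquitin enzymes that carry the signal of IL1R1, 0 were called at 48 h, with 0 under an unadjusted p of 0.05, and 2 were higher at 2 h. IRAK3, a kinase-like inhibitor of the pathway, rose by 0.83 at 2 h (limma adjusted p = 0.0168). MAP3K8, a kinase acting on the ERK pathway, rose by 1.08 at 2 h (limma adjusted p = 0.0175). These 2 gave 0.26 and 0.49 at 48 h and were not called (limma adjusted p = 0.745 and 0.601). With AES, AES24h and ACS against control at 48 h, 0, 2 and 1 of the 20 were called. Those comparisons called 7.76%, 3.54% and 3.85% of all probe sets. IRAK3 was among the genes called with AES24h (0.82, limma adjusted p = 0.0223) and was the one called with ACS (0.82, limma adjusted p = 0.0195).

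Of 5 measured proteases that process receptors at the membrane, 1 was higher with IL-1β than in control at each time. BACE2, a beta-secretase known to cleave IL1R2, averaged 8.88 ± 0.22 with IL-1β and 7.75 ± 0.20 in control at 48 h, and 9.15 ± 0.26 with IL-1β and 7.63 ± 0.18 in control at 2 h (SD, n = 4 each). The log2 fold changes were 1.14 (limma adjusted p = 1.86e-05) and 1.52 (limma adjusted p = 4.15e-08). It was not called in any serum comparison with IL-1β, where its values at 48 h lay at −0.01 for AES, 0.14 for AES24h and 0.15 for ACS. Against control at 48 h, BACE2 was higher with each serum, where AES, AES24h and ACS called 7.76%, 3.54% and 3.85% of all probe sets. So was 1 further protease in each comparison, a different one each time and named after their values were seen: BACE1 with AES (0.38, limma adjusted p = 0.0316), ADAM10 with AES24h (0.69, limma adjusted p = 0.0444) and ERAP1 with ACS (1.41, limma adjusted p = 0.0208).

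Among 14 other cytokine receptors, 1 was higher and 1 lower with IL-1β at each time. IL4R, a receptor subunit for interleukin-4 and interleukin-13, rose by 0.55 at 48 h (limma adjusted p = 0.0431) and by 0.97 at 2 h (limma adjusted p = 1.63e-05). IL4R was also called in ACS against IL-1β at 48 h (0.65, limma adjusted p = 0.0356), the only call of these pathway lists in the 6 serum comparisons with IL-1β. Those 6 comparisons called 0.0164% to 0.442% of all probe sets. TNFRSF11B, which encodes osteoprotegerin, a soluble decoy receptor for RANKL, fell by 2.16 at 48 h (limma adjusted p = 0.000548) and by 1.25 at 2 h (limma adjusted p = 0.0471). The 2 decoy receptors IL1R2 and TNFRSF11B thus had opposite signs with IL-1β.

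**Figure D4:**
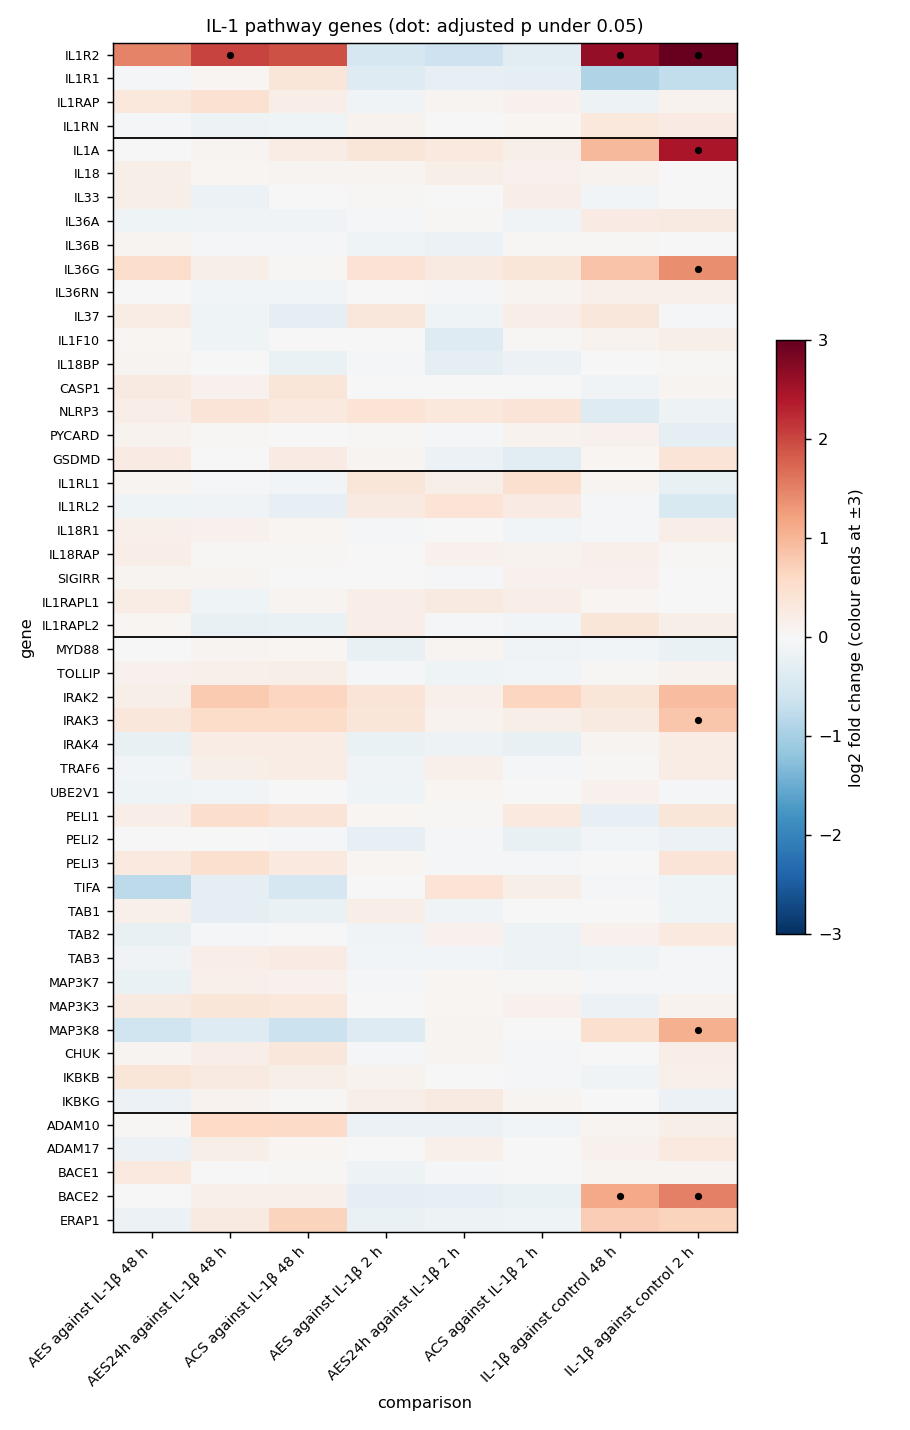
Log2 fold changes (colour, ending at ±3) of the 4 genes and the measured members of 4 pathway lists (rows) in 8 comparisons (columns), with a dot where the adjusted p was under 0.05. IL1R2, IL1A, IL36G, IRAK3, MAP3K8 and BACE2 carry dots in IL-1β against control, and IL1R2 alone carries one against IL-1β, for AES24h at 48 h.

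Likeness to other genes was measured as Pearson's r over the 10 group means, among 1608 genes whose means ranged over at least 1 log2 unit, as a description of groups that share treatments. IL1R2 was most like DPYD (r = 0.993), a pyrimidine-degrading enzyme, GLUL (0.990), glutamine synthetase, SLC25A28 (0.988), a mitochondrial iron carrier, and FOLR3 (0.985), a folate receptor. It was least like UXS1 (−0.988), which makes UDP-xylose for proteoglycan chains, and MELTF (−0.980), melanotransferrin. IL1R1 was most like MYO1D (0.965), LRIG3 (0.948), TLR1 (0.946) and ANO3 (0.943), and least like the acute phase gene SAA (−0.925) and SOD2 (−0.924), mitochondrial superoxide dismutase. IL1RAP reached only 0.817 with CEMIP, 0.799 with GK, 0.775 with PLEKHH2 and 0.770 with AHR, and −0.694 with PROK2 and −0.690 with GPT2. IL1RN reached 0.923 with the chemokine CCL20, 0.922 with GEM, 0.920 with the inducible nitric oxide synthase NOS2 and 0.919 with CADPS, and −0.952 with ENPP1 and −0.951 with FXYD6. The IL1RAP and IL1RN means themselves ranged over only 0.45 and 0.36.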

How the data were processed

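The deposited values are log2 expression, 1 per probe set and array; the submitters' processing notes name RMA, limma and Affymetrix Expression Console, without versions. RMA equalises the distributions of the arrays, which would reduce a shift shared by most transcripts. The table held 30559 probe sets and 0 columns of no sample. The platform annotation lists 17132 with a gene and 16789 with 1 symbol (16661 genes), and only these were named. Groups and replicate numbers came from the titles. A linear model with 10 group means was fitted to all 40 arrays (limma 3.58.1, R 4.3.3, 30 residual and 4.62 prior degrees of freedom, intensity trend), with no replicate term, and p-values were adjusted by Benjamini-Hochberg over all probe sets at 0.05. The model was tested on simulated data with independent arrays, so that test does not cover a spread shared by replicate number. The members and gene lists were chosen with earlier results of these data known. Beyond the members, genes of the pathway, cytokine receptor and leukocyte lists were named, at most 8 a list. Unless stated, they were those called in IL-1β against control or a serum against IL-1β. For likeness, the 4 highest and 2 lowest correlations were named. Synovial or fibroblast markers (7 measured) and endothelial or mural markers (9 measured) were also run and are not named. IL-1β against control called 1.26% of all probe sets at 48 h and 4.52% at 2 h. In it, 1 synovial marker was higher at each time and 1 lower at 48 h. In the endothelial list, 1 was lower at each time. With ACS against IL-1β at 48 h, where 0.262% of all probe sets were called, 1 synovial marker was higher. The sera against control called 3.54% to 7.76% of all probe sets. There, 1 endothelial marker was lower with each serum at both times. In the synovial list, 2 were higher with each serum at 48 h and 1 at 2 h, and 1 was lower with AES at each time. The 3 comparisons with the mean of the 3 sera, and leaving out a replicate number or AES arrays 2 and 4 at 48 h, were added after seeing the data. Each of the 4 members had 1 probe set, so the mean of several probe sets was not run. No genome or sequence was used here.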

Additional observations from a re-analysis of the deposited data

Results flagged for a closer look

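In 4 of 40 checks of a group of 4 arrays, the lowest array stood apart, with a gap to the next array that took more of the group's range than Dixon's 95% critical value allows. Chance gives about 1 in 20 such groups. For IL1R1, the gap took 0.864 of the range with AES at 2 h (6.76, the others 7.996 to 8.19) and 0.935 in control at 2 h (8.65, the others 8.98 to 8.9999). For IL1R2, it took 0.848 with ACS at 48 h (9.75, the others 11.02 to 11.25) and 0.896 in control at 2 h (4.48, the others 4.95 to 5.01). The AES and ACS arrays that stood apart both carry replicate number 1. What sets these arrays apart was not tested.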

How the results depend on the processing

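IL1R2 kept its calls in IL-1β and in each serum against control in every setting run, and no IL1R2 call changed sign. Of 29 comparisons, IL1R2 was called in 8 to 14 across settings, against 10 as reported. With the replicate block, calls were gained by IL1R2 in AES (1.49, limma adjusted p = 0.0175) and ACS (1.91, limma adjusted p = 0.00258) against IL-1β at 48 h, ACS at 48 h against 2 h (1.31), and the time differences of AES24h (2.65) and of the mean of 3 sera (2.28), and by IL1R1 against control in AES (−1.12), AES24h (−0.98) and ACS (−1.03) at 2 h and AES at 48 h (−0.94), with limma adjusted p of 0.00351, 0.0116, 0.00806 and 0.0149. The numbers were not taken as pairs in the main model, because the labels do not say what they mark. Of 180 same-number pairs of arrays, 98 had deviations correlated over 0.1 (median 0.11, against −0.04 for other numbers). Since 36 of 40 arrays correlated best with their own number, the main p-values leave out a spread that same-number arrays share. ACS against IL-1β at 48 h was also called with a random replicate block and with the upper 60% of probe sets (1.91 in both), with arrays centred (1.96) and with array weights (1.89). IL1R1 was called with AES against control at 2 h with the random block and the upper 60% (−1.12 in both), centring (−1.17) and weights (−1.03), and with ACS at 2 h with the random block and the own-group spread (−1.03 in both) and weights (−1.02). The mean-of-3-sera time difference was called with the random block (2.28) and weights (2.25), and the IL-1β time difference with weights (−2.38). With the spread of only the groups compared, AES24h lost its calls against IL-1β at 48 h (2.02, limma adjusted p = 0.128) and against 2 h (1.73, limma adjusted p = 0.22). Quantile normalisation again turned the IL1R1 value of AES against IL-1β at 48 h to 0.0208, and leaving out AES arrays 2 and 4 together turned it to 0.0618.

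Leaving out arrays moved IL1R2 against IL-1β at 48 h over 1.76 to 2.33 for AES24h, 1.62 to 2.26 for ACS and 1.61 to 2.11 for the mean of 3 sera, and at 2 h over −0.94 to −0.11 for AES, −0.91 to −0.19 for AES24h and −0.54 to 0.0336 for ACS. At 48 h against 2 h it ran over 1.30 to 2.01 for AES24h and 0.88 to 1.69 for ACS, and the mean-of-3-sera time difference over 2.07 to 2.59. Between sera it ran at 48 h over −0.38 to 0.24 for ACS minus AES24h, and at 2 h over −0.52 to 0.32 for AES24h minus AES, −0.23 to 0.63 for ACS minus AES and −0.15 to 0.66 for ACS minus AES24h. IL1R1 against IL-1β ran over −0.32 to 0.17 for AES and −0.17 to 0.27 for AES24h at 48 h and −0.59 to 0.15 for AES24h at 2 h. IL1R1 against control ran over −1.24 to −0.74 for AES at 48 h, −1.32 to −0.54 for AES24h at 2 h and −1.19 to −0.90 for ACS at 2 h. IL1RAP with IL-1β against control ran over −0.44 to 0.12 at 48 h and −0.0747 to 0.27 at 2 h. Without replicate number 2 or 4, the mean of 3 sera at 48 h was 1.73 or 1.67 (limma adjusted p = 0.109 and 0.243). Without number 1, ACS at 48 h was called for IL1R2 against IL-1β (2.07) and against 2 h (1.69), and ACS at 2 h for IL1R1 against control (−0.90). The probe sets called by limma for IL-1β against control were 386 at 48 h (696 with the replicate block, 757 with weights, 130 without number 4) and 1380 at 2 h (2260 with weights, 687 without number 4). For AES, AES24h and ACS against IL-1β at 48 h they were 135, 69 and 80, against 460, 215 and 246 with the replicate block and 5, 27 and 1 with the own-group spread. The cause of these shifts was not tested. IL1RN lay under the upper 60% of probe sets and has no value there.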
